A study of Mus musculus with 6 samples.

Results

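The BCL2 family genes Bcl2, Bcl2l1, Bcl2l2 and Mcl1, which protect cells from apoptosis, and Bcl2l11, Bad, Bid, Bbc3, Pmaip1 and Bak1, which promote it, were followed in mouse Ba/F3 cells with and without induction of PAX5-KIDINS220. The 10 genes were taken by their symbol in the array's annotation, without use of any measured value, and had 33 of the 45037 probe sets tested on the array (10 of 18193 genes). The 4 survival genes had 19 probe sets and the 6 death genes 14. By mean signal 30 of the 33 lay at or above the 40th percentile of all probe sets (a signal of 36.3), and all 33 were kept.

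All 6 samples were Ba/F3 cells, an interleukin-3 dependent haematopoietic line of BALB/c origin, grown with medium conditioned by WEHI-3 cells and transduced with the fusion under a Tet-on promoter. The Dox(-) group (3 arrays) had no doxycycline and the Dox(+) group (3 arrays) had 500 ng/mL for 24 h, so that the controls carried the construct as well. No sample lacked the construct and no sample of parental cells had doxycycline, so an effect of the fusion and an effect of doxycycline cannot be told apart. Whether the transduced cells were a clone, and whether samples of a group came from separate cultures, is not in the labels. Each p-value therefore measures only how far these arrays vary, possibly for technical reasons. By the start of the array code in their titles, 2 arrays (EA15, 1 per group) and 4 arrays (EA20, 2 per group) were distinguished. The labels do not say what the codes mark. Within EA20 the Dox(+) arrays had lower code numbers than the Dox(-) arrays, so that order and treatment cannot be told apart within EA20.

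Proteins of the BCL2 family decide whether the outer mitochondrial membrane is permeabilised, the step that releases cytochrome c and activates caspases. BCL2, BCL-XL (Bcl2l1), BCL-W (Bcl2l2) and MCL1 bind and restrain their relatives. BIM (Bcl2l11), BAD, BID, PUMA (Bbc3) and NOXA (Pmaip1) share only the BH3 motif and either neutralise the survival proteins or activate the pore-forming proteins BAK (Bak1) and BAX. In Ba/F3 cells interleukin-3 signalling is known to sustain survival members and to restrain BIM and BAD, and withdrawal of the cytokine leads to apoptosis. Much of the control of MCL1, BAD and BID is by protein turnover, phosphorylation or cleavage, which RNA arrays do not measure.

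Of the genes joined in the fusion, Pax5 was higher with doxycycline on all 3 arrays for 1421765_at, with signals of 15.6, 3.76 and 20.3 in Dox(-) and 119, 94.5 and 94.2 in Dox(+) (log2 difference 2.06, SE 0.37; limma adjusted p 0.12). The other Pax5 probe set, 1454401_at, was at 0.21 (SE 0.40; limma adjusted p 0.92), positive in EA15 (0.76) and negative in EA20 (-0.07). The 4 probe sets of Kidins220, the other gene of the fusion, were at -0.08 to 0.26 (lowest limma adjusted p 0.54), so no probe set of either gene passed. Whether these probe sets read the transcript of the construct is not given in the sources used here. The haematopoietic identity of the cells was seen in all 6 arrays: Ptprc, Csf2rb, Csf2rb2, Il3ra, Spi1 and Cd44 each had signals over 100 on every array. The sum of these 6 ran from 65052 to 70715 in EA20 but only from 24845 to 26811 in EA15, and its part in the differences between the codes was not tested. Of 4 T cell and 4 fibroblast markers, 3 and 4 stayed under a signal of 100 on every array. So did 3 of 5 B lineage markers (Cd79a, Ebf1 and Vpreb1) and 3 of 6 macrophage or monocyte markers (Cd14, Elane and Mpo). Cd79b, Adgre1, Csf1r and Lyz2 were above it on all 6. Of 2 erythroid markers, Klf1 was above it on all 6 and Hba-a1 stayed under it (2.92 to 19.2). No marker passed the test for doxycycline. The ratio of 3' to 5' signal of the control probe sets, a measure of RNA integrity, was 0.637 to 0.684 in Dox(-) and 0.656 to 0.688 in Dox(+) for Gapdh, and 1.18 to 1.23 and 1.17 to 1.24 for beta-actin. By code it was 0.684 to 0.688 in EA15 and 0.637 to 0.680 in EA20 for Gapdh, without overlap, and 1.17 to 1.18 and 1.18 to 1.24 for beta-actin, with overlap; its part in the differences between the codes was not tested. Values are signal intensities, and the same trimmed mean had been set on every array, so a change in total RNA per cell would not be seen. Bulk RNA also cannot tell a change in every cell from a change in the make-up of the culture.

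The family was compared by doxycycline and by array code. With doxycycline none of the 33 probe sets passed the test; the differences of Bcl2 were negative in all 5 probe sets and in both codes, with ratios of 0.698 to 0.850, and no other member with more than 1 probe set had the same sign in every probe set and both codes. Between the array codes, Bcl2l11 was up to 4.02-fold higher in EA20 than in EA15. Bcl2l1 was lower in EA20, down to 0.331 of its EA15 level. For the codes 19 of the 33 probe sets passed, where 24.8% of all probe sets did. Of all probe sets at or above the 40th percentile of mean signal, 40.1% passed.

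The upstream sequences of Bcl2 and Bcl2l11 are shown because these were the member with the smallest p for doxycycline and the member with the largest difference between the codes. They are the 250 bases before the annotated start in RefSeq (GRCm38.p6), chr1:106714291-106714540 on the minus strand for Bcl2 and chr2:128125788-128126037 on the plus strand for the first start of Bcl2l11. Capitals mark matches, on either strand, to 5 sets of letters: TTCNNNGAA (STAT5), GTAAACA (FOXO), CACGTG (E box), TGACG (the core of cAMP response elements) and GGGCGG (GC box).
Bcl2: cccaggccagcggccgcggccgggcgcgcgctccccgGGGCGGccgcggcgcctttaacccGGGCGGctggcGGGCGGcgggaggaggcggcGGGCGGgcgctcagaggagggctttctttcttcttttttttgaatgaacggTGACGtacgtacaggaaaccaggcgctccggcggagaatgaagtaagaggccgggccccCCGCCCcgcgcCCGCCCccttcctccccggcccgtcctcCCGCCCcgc
Bcl2l11: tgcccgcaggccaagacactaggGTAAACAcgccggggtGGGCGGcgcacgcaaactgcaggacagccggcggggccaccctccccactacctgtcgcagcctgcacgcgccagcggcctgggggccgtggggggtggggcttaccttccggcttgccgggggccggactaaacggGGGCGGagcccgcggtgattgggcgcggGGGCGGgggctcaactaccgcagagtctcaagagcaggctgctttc
The Bcl2 window held 7 GC boxes and 1 TGACG, and the Bcl2l11 window 3 GC boxes and 1 FOXO match. The window of the other Bcl2l11 start, not shown, held 2 GC boxes and 0 FOXO matches. Over the 9 member genes whose upstream window was searched, 7 had a GC box at 1 or more of their starts, 2 a FOXO match, 2 a TGACG, 1 an E box and 0 a STAT5 match. Of 32851 upstream windows of this length, 32.7% held a GC box, 3.17% a FOXO match, 17.8% a TGACG, 6.02% an E box and 7.02% a STAT5 match. Several genes have more than 1 start, so the gene counts and these shares are not on the same footing. The arrays measured RNA only, and a match is a description of the letters.

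**Figure D1:**
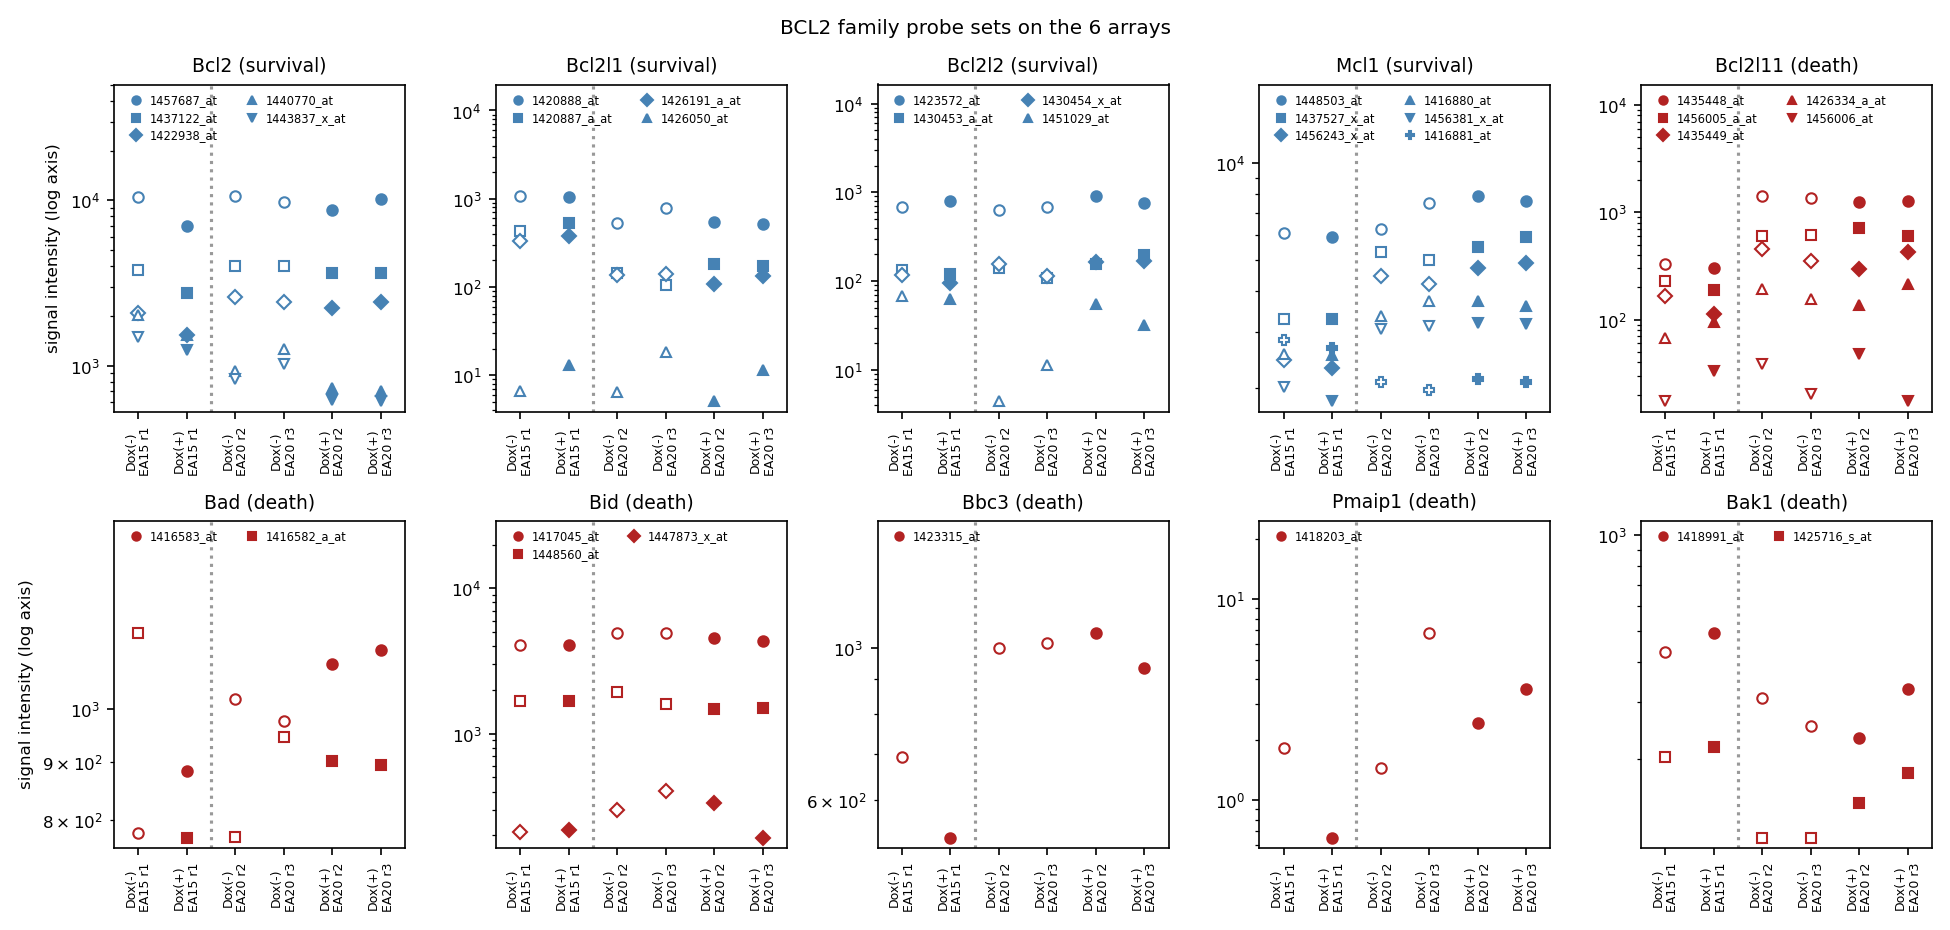
Signal intensity (log axis) of each BCL2 family probe set on the 6 arrays, with a panel per gene, open symbols for Dox(-), filled symbols for Dox(+), blue for survival and red for death genes; the dotted line parts the EA15 from the EA20 arrays. The step at the dotted line in Bcl2l11 (329 and 304 against 1237 to 1411 for 1435448_at) is larger than any difference between open and filled symbols of that probe set on the same side of the line.

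Every ratio given with an interval is the fitted one on the log2(signal + 16) scale, a ratio of geometric means with 16 added, and so differs from the quotient of the arithmetic means of the signals. The question of the study was which pathways the fusion affects, and the comparison of Dox(+) with Dox(-) was fitted with the array code as a term. Of the 33 probe sets 18 had a negative difference (51.4% of all probe sets). By limma, 0 of the 33 member probe sets passed a Benjamini-Hochberg adjusted p of 0.05 (lowest adjusted p 0.18), where 0.0866% of all probe sets did. At an unadjusted p under 0.05 there were 8 members (9.44% of all probe sets), of which 5 belonged to Bcl2. Signals of Dox(+) and Dox(-) did not overlap in 2 of the 33 (7.73% of all probe sets), 1 lower, of Bcl2, and 1 higher, of Bcl2l2 (3.99% and 3.75% of all). In the fit without the array code, 0 passed as well (lowest adjusted p 1.0 among the members), and 2.98% of all probe sets had an unadjusted p under 0.05.

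Bcl2, the founding survival gene of the family, had negative log2 differences in all 5 of its probe sets, in EA15 and in EA20 alike. Probe set 1440770_at had signals of 2016, 932 and 1256 in Dox(-) and 1533, 730 and 704 in Dox(+). Each Dox(+) signal lay below every Dox(-) signal of the same code, while across the codes the groups overlapped. The means were 1401 ± 557 and 989 ± 471 (SD, n = 3 each), and the fitted ratio was 0.698 (95% interval 0.589 to 0.826), which did not pass (limma adjusted p 0.18, rank 234 of 45037). Probe set 1443837_x_at gave 1483, 825 and 1029 against 1244, 620 and 607, a ratio of 0.724 (0.615 to 0.851; limma adjusted p 0.20).

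The other 3 Bcl2 probe sets had ratios of 0.828 to 0.850, nearer to equality. Probe set 1437122_at had 3804, 4030 and 3997 in Dox(-) and 2764, 3623 and 3657 in Dox(+), and is the Bcl2 probe set whose groups did not overlap (ratio 0.843, 0.749 to 0.948; limma adjusted p 0.34). Probe set 1457687_at had 10554, 10600 and 9815 against 7048, 8698 and 10142. The lowest of its signals was that of the Dox(+) array of EA15, and the EA20 arrays of the groups overlapped. Probe set 1422938_at had 2095, 2606 and 2444 against 1523, 2222 and 2416.

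The 5 probe sets of Bcl2 differed in which arrays carried the decrease in signal. For 1457687_at, 1437122_at and 1422938_at the log2 differences were -0.58, -0.46 and -0.46 in EA15 and -0.12, -0.14 and -0.12 in EA20. For 1440770_at and 1443837_x_at they were -0.39 and -0.25 in EA15 and -0.58 and -0.57 in EA20. The difference between the codes had an unadjusted p of 0.030, 0.026 and 0.042 for the first 3, and of 0.45 and 0.15 for the last 2, but over all probe sets limma called 0 interactions (0% of 45037, with 5.99% at an unadjusted p under 0.05, and 4 of the 33 members). The lowest adjusted p of a member was 0.83, so a difference in response between the codes was not shown. Which exons the probe sets read is not given in the sources used here.

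Bcl2l2, which encodes the survival protein BCL-W, had positive log2 differences in all 4 probe sets. Probe set 1423572_at had signals of 679, 628 and 677 in Dox(-) and 809, 905 and 759 in Dox(+), with no overlap between the groups. The means were 661 ± 28.5 and 824 ± 74.2 (SD, n = 3 each), and the fitted ratio was 1.24 (95% interval 1.08 to 1.43; limma adjusted p 0.32), with log2 differences of 0.25 in EA15 and 0.34 in EA20. It did not pass over all probe sets. The other 3 probe sets were positive in EA20 (0.45, 0.29 and 1.31) and negative in EA15 (-0.13, -0.28 and -0.09). The largest of these, 1451029_at, rested on signals of 4.42 and 11.3 in the EA20 Dox(-) arrays against 55.0 and 32.4, while the EA15 arrays had 68.3 and 63.3.

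Bcl2l1, the gene of BCL-XL and a known STAT5 target, showed no common direction with doxycycline. Probe set 1420887_a_at had 431, 146 and 104 in Dox(-) and 532, 182 and 173 in Dox(+), a ratio of 1.33 (95% interval 1.04 to 1.71; limma adjusted p 0.46), higher within both codes. Probe set 1420888_at had 1067, 532 and 791 against 1055, 550 and 521 (ratio 0.880, 0.711 to 1.09; limma adjusted p 0.73). Its EA15 arrays were nearly equal and its EA20 arrays overlapped. The other 2 had ratios of 0.963 and 0.991, and 1426050_at was dim on every array (5.06 to 18.2).

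Mcl1, a short-lived survival protein on which many haematopoietic cells depend, had log2 differences of -0.02 to 0.10 in its 6 probe sets. Probe set 1448503_at had signals of 6087, 6258 and 7536 in Dox(-) and 5890, 7888 and 7600 in Dox(+), with a ratio of 1.07 (95% interval 0.937 to 1.22; limma adjusted p 0.77). All 6 were positive in EA20 (0.04 to 0.17) and 5 of 6 negative in EA15 (down to -0.14). The interval of 1448503_at was the widest of the 6.

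Bcl2l11, the gene of BIM, had log2 differences of -0.27 to 0.22 in its 5 probe sets, with 3 negative and 2 positive. Probe set 1435448_at had 329, 1411 and 1361 in Dox(-) and 304, 1237 and 1287 in Dox(+), a ratio of 0.917 (95% interval 0.820 to 1.03; limma adjusted p 0.64). The Dox(+) signals were the lower ones within both codes, by log2 differences of -0.11 and -0.13.

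Bad, which links growth factor signalling to apoptosis through its phosphorylation, gave opposite signs in its 2 probe sets. Probe set 1416583_at had 779, 1020 and 977 in Dox(-) and 882, 1096 and 1128 in Dox(+), higher within both codes (log2 difference 0.16, 95% interval 0.01 to 0.31; limma adjusted p 0.51). Probe set 1416582_a_at had 1167, 773 and 946 against 772, 902 and 894, and its difference lay in the EA15 Dox(-) array, which was the highest of the 6. Its interaction with the code had the smallest unadjusted p among the members (0.011; limma adjusted p 0.83).

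Bid, whose product is activated by caspase cleavage, had negative log2 differences in all 3 probe sets (-0.10 to -0.27). Probe set 1417045_at had 4063, 4945 and 4945 in Dox(-) and 4063, 4561 and 4344 in Dox(+), so that the difference lay in EA20 alone (ratio 0.933, 0.845 to 1.03; limma adjusted p 0.67). Bbc3, the gene of PUMA and a known p53 target, had 692, 1001 and 1019 against 528, 1053 and 934 in its only probe set (ratio 0.905, 0.780 to 1.05; limma adjusted p 0.69). The EA20 arrays overlapped, and the EA15 arrays differed by -0.38 on the log2 scale. Pmaip1, the gene of NOXA and another p53 target, had signals of 0.65 to 6.81 on all 6 arrays, under the limit for dim probe sets, too low to read a difference from.

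Bak1, the pore-forming member, had positive log2 differences in both probe sets. Probe set 1425716_s_at had 202, 113 and 113 in Dox(-) and 217, 145 and 180 in Dox(+), higher within both codes (ratio 1.27, 95% interval 0.945 to 1.70; limma adjusted p 0.62). Probe set 1418991_at had 430, 310 and 254 against 495, 231 and 331, with overlap in EA20 (ratio 1.04, 0.818 to 1.32).

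**Figure D2:**
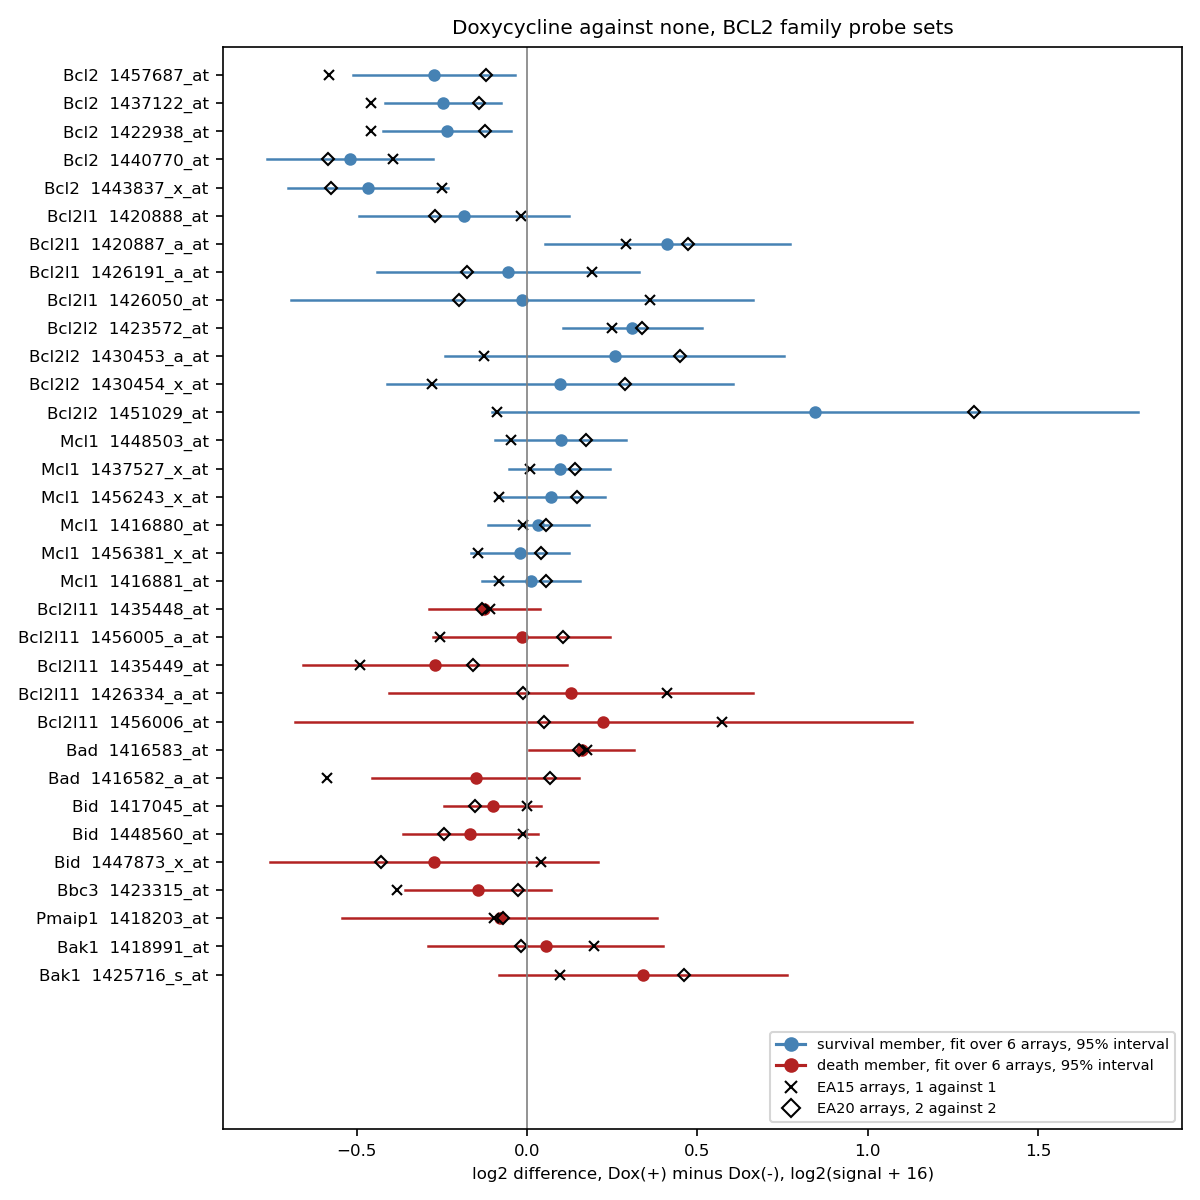
Log2 difference of Dox(+) minus Dox(-) on the log2(signal + 16) scale for the 33 probe sets: circles and bars give the fit over 6 arrays with its 95% interval, crosses the EA15 arrays and diamonds the EA20 arrays. All 5 Bcl2 probe sets lie left of 0 by every symbol, and all 4 Bcl2l2 circles lie right of it.

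With each gene given as the mean over its probe sets, the median log2 difference was 0.04 for the 4 survival genes (3 positive, from -0.35 for Bcl2 to 0.38 for Bcl2l2) and -0.05 for the 6 death genes (2 positive, from -0.18 for Bid to 0.20 for Bak1). The value of Bcl2l2 takes in 0.85 for 1451029_at, whose EA20 Dox(-) signals were only 4.42 and 11.3. The other probe sets of Bcl2l2 were at 0.10 to 0.31. Bcl2l1 counted as positive at 0.04, although 1 of its 4 probe sets was positive (0.41) and 3 were negative. Bad counted as positive at 0.005, the mean of probe sets at 0.16 and -0.15. The death median takes in Pmaip1, whose signals were too low to read a difference from. Over all 18193 genes the median was 0.002. In EA15 the medians were -0.06 and -0.04 and in EA20 0.03 and -0.03, so the survival median changed its sign between the codes.

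The sign of the doxycycline difference often changed between the codes. Of the 33 probe sets, 18 had the same sign in EA15 and EA20, where 53.2% of all probe sets did, and 5 of the 18 were those of Bcl2. In EA20 by itself 0 of the 33 passed (limma, lowest adjusted p 0.16 for 1443837_x_at of Bcl2), where 0.124% of all probe sets did, and 5 had an unadjusted p under 0.05 (10.8% of all). The 2 Dox(+) and 2 Dox(-) arrays of EA20 did not overlap in 20 of the 33, 8 lower and 12 higher with doxycycline (40.4% of all probe sets, 21.3% lower and 19.1% higher).

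**Figure D3:**
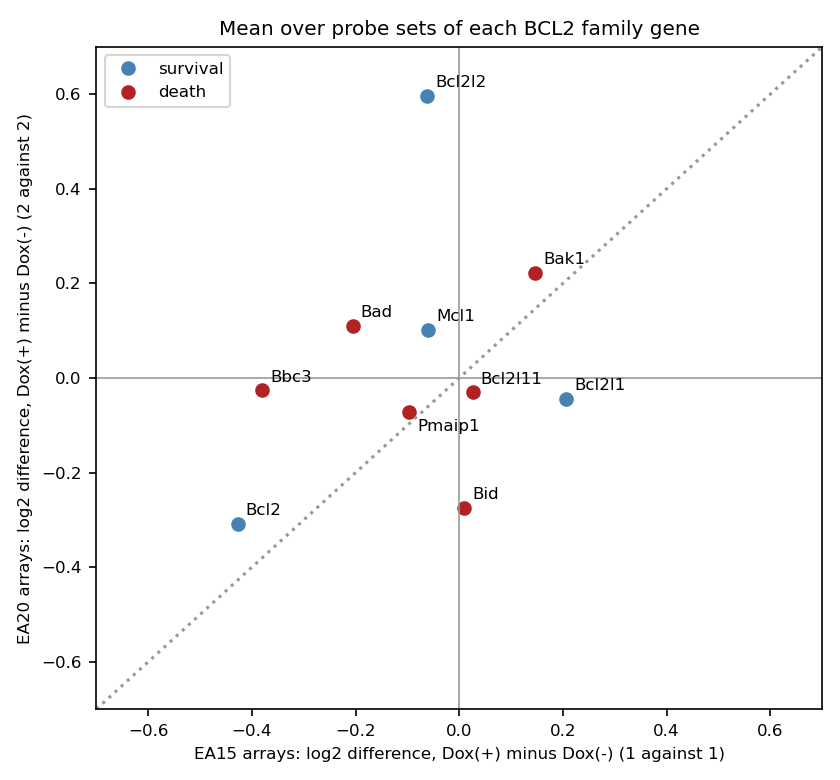
Log2 difference of Dox(+) minus Dox(-) of each gene (mean over its probe sets) in the EA15 arrays (horizontal axis) and in the EA20 arrays (vertical axis), blue for survival and red for death genes, with the line of equal values dotted. Bcl2 (-0.43 and -0.31) lies in the lower left and Bak1 (0.15 and 0.22) in the upper right, while Bcl2l2 (-0.06 and 0.60) and Bbc3 (-0.38 and -0.03) lie far from the line. The EA20 value of Bcl2l2 takes in 1.31 for 1451029_at, whose EA20 Dox(-) signals were only 4.42 and 11.3.

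The array codes separated the members far more than doxycycline did. In the term for the code, 19 of the 33 probe sets passed (limma adjusted p under 0.05), 12 higher and 7 lower in EA20. Of all probe sets 24.8% passed (13.4% higher and 11.4% lower), and 40.1% of those at or above the dim limit, to which all 19 belonged. The signals of the 2 EA15 and the 4 EA20 arrays did not overlap in 22 of the 33 (39.6% of all probe sets). What differed between the arrays of the codes is not given in the sources used here.

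Of the 19 calls, 11 held under every alternative run that tested them and 8 were lost under at least 1. A probe set was tested in 14 to 16 settings, since some settings left out _s_at, _x_at and _a_at or dimmer probe sets. All 8 were lost without the mean-variance trend, and those that ended on leaving out a single array are named with the gene. Bcl2l11 was higher in EA20 in 4 of its 5 probe sets. For 1435448_at the means were 317 ± 17.7 in EA15 (n = 2) and 1324 ± 77.0 in EA20 (n = 4, SD), and the fitted ratio was 4.02 (95% interval 3.57 to 4.53; limma adjusted p 2.2e-07). The ratios of 1456005_a_at, 1435449_at and 1426334_a_at were 2.86, 2.57 and 1.98 (limma adjusted p 1.5e-05, 3.6e-04 and 0.017), and 1456006_at did not pass. The call of 1426334_a_at ended without either EA15 array, without replicate 2 of Dox(-) or without replicate 3 of Dox(+) (limma adjusted p 0.057 to 0.19). Bbc3 was also higher, at 1.64-fold (1.40 to 1.92; limma adjusted p 5.0e-04), as was 1416583_at of Bad at 1.27-fold (limma adjusted p 0.0064; 0.054 without the EA15 Dox(-) array).

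Bcl2l1 was lower in EA20 in 3 of its 4 probe sets. Probe set 1420887_a_at had a mean of 481 ± 71.0 in EA15 (n = 2) and 151 ± 34.8 in EA20 (n = 4, SD), and the fitted ratio was 0.331 (95% interval 0.254 to 0.432; limma adjusted p 8.2e-05). The ratios of 1426191_a_at and 1420888_at were 0.396 and 0.562 (limma adjusted p 3.8e-04 and 0.0019), the second with 0.069 without the EA15 Dox(+) array. Bak1 was lower as well, at 0.617 for 1418991_at (limma adjusted p 0.010; 0.061 to 0.17 without either EA15 array), while 1425716_s_at did not pass (0.671; limma adjusted p 0.066). No probe set of Bcl2l2, Bid or Pmaip1 passed.

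In Mcl1 and Bcl2 the probe sets disagreed on the direction between the codes. Of the 6 Mcl1 probe sets 5 were higher in EA20, from 1.22-fold for 1448503_at (limma adjusted p 0.048) to 1.92-fold for 1456243_x_at (1.4e-05), and 1416881_at was lower, at 0.756 (0.0015). The call of 1448503_at was lost in 9 of 16 settings, among them the removal of any 1 array other than replicate 2 of Dox(-) (limma adjusted p 0.072 to 0.47). In Bcl2, 1440770_at and 1443837_x_at were lower, at 0.506 and 0.559 (limma adjusted p 1.5e-04 and 3.1e-04), and 1422938_at was higher, at 1.35-fold (0.0048; 0.12 without the EA15 Dox(+) array). These 2 lower probe sets are also the pair with the most negative differences with doxycycline. No level of expression for the gene as a whole can be read where its probe sets move in opposite directions.

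**Figure D4:**
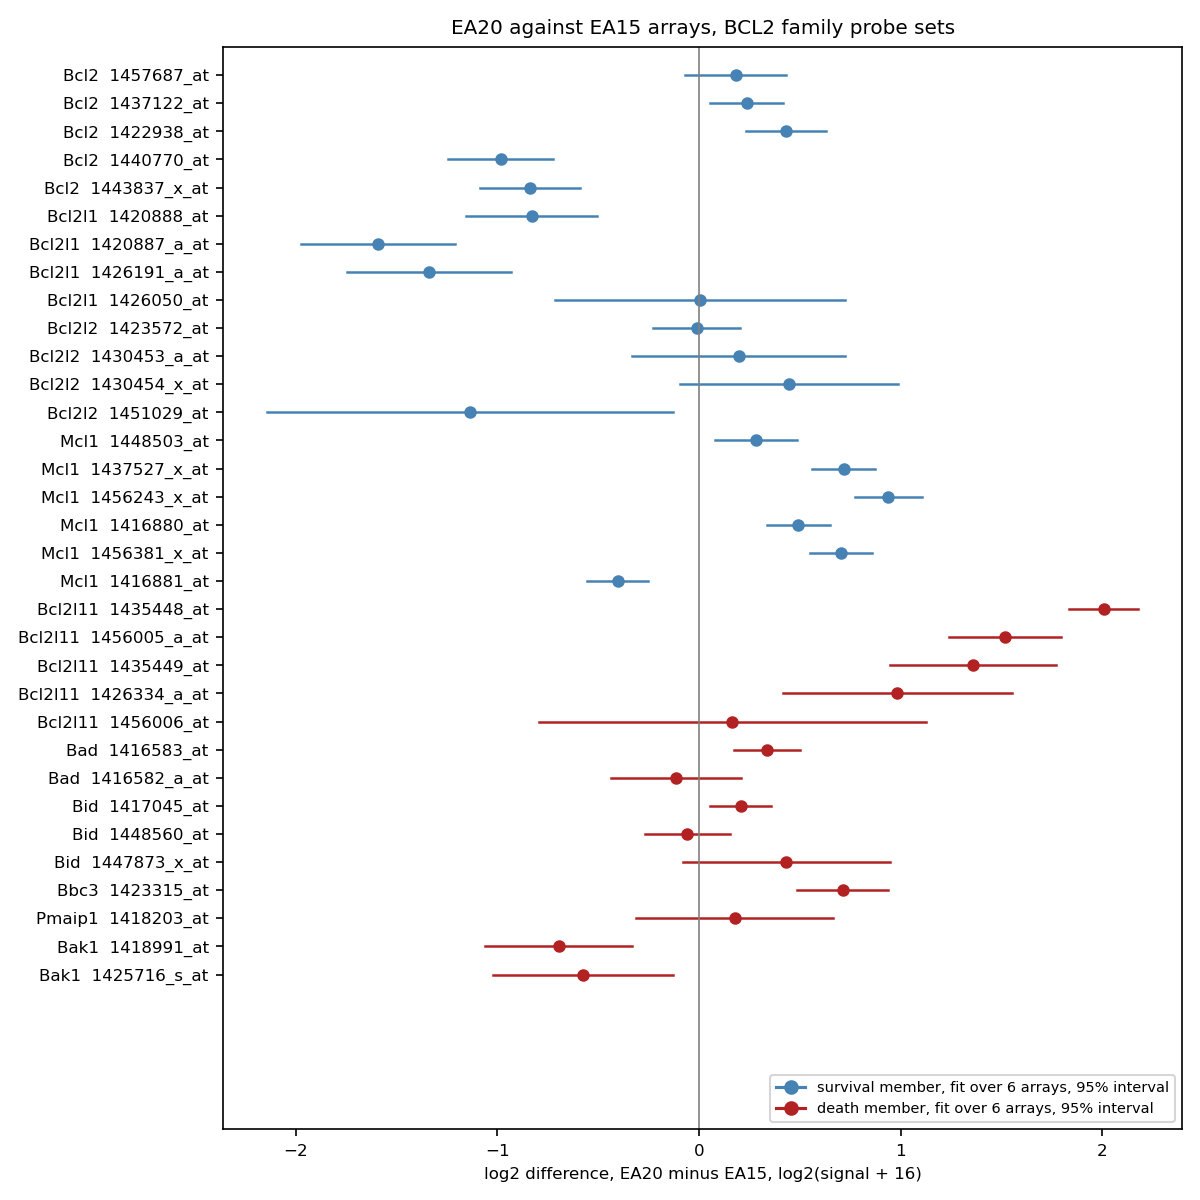
Log2 difference of the EA20 minus the EA15 arrays on the log2(signal + 16) scale for the 33 probe sets, with 95% intervals, blue for survival and red for death genes. Of the 5 Bcl2l11 probe sets 4 lie at 0.98 to 2.01, 3 of the 4 Bcl2l1 probe sets at -0.83 to -1.59, and those of Bcl2 and Mcl1 on both sides of 0.

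Other genes of the pathway were read from 4 lists. No probe set of any of them passed with doxycycline over all probe sets in the fit with the array code (limma). At an unadjusted p under 0.05, 3 were higher and 0 lower among other BCL2 family genes, 0 and 6 among apoptosome, caspase and inhibitor genes, 6 and 1 among upstream regulators, and 8 and 1 in the list of turnover and BAD binding. These are 3 of 18, 6 of 46, 7 of 50 and 9 of 75 probe sets of the lists (16.7%, 13%, 14% and 12%). Of all probe sets 9.44% had such a p. The counts are small, and some of these probe sets share a gene, as with Parp1, Jak2 and Ywhaq, so no excess is read from them. No list was tested as a set, and the share of all probe sets by direction at this threshold is not given here. Of all probe sets 51.4% had a negative difference, against which the positive and negative counts of each list are to be read. Among other BCL2 family genes, Bax, Bcl2a1a, Bcl2a1b, Bcl2a1c, Bcl2a1d, Bnip3l and Bcl2l2-pabpn1 had no probe set named by them alone. The other 10 of 17 genes had 18 such probe sets (13 positive, median 0.10). Those with the smallest p were Bcl2l15 (log2 difference 1.21, SE 0.40), Bcl2l13 (0.21, SE 0.08), Bmf (0.42, SE 0.17), a BH3-only gene, and Hrk (-0.51, SE 0.28), another. Bcl2l15 had signals of 1.42, 32.6 and 43.6 in Dox(-) and 5.85, 141 and 166 in Dox(+) (limma adjusted p 0.38). Its log2 differences were 0.33 in EA15, where both signals were near 0, and 1.65 in EA20. Bmf had signals of 103, 210 and 259 in Dox(-) and 115, 372 and 334 in Dox(+), higher within both codes (limma adjusted p 0.47).

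Of the apoptosome, caspase and inhibitor genes 19 of 21 were measured (46 probe sets, 30 negative, median -0.03). Casp9, the initiator caspase of the mitochondrial pathway, was at -0.56 (SE 0.17; limma adjusted p 0.34) for 1457816_at, and 3 probe sets of Parp1, a caspase substrate, were at -0.20 to -0.24. Of the upstream regulators 21 of 25 were measured (50 probe sets, 32 positive, median 0.07). Myc, which sensitises cells to apoptosis, was at -0.36 (SE 0.08; limma adjusted p 0.18), and Stat5b, a transducer of interleukin-3 signals, at 0.47 (SE 0.15; limma adjusted p 0.36).

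Jak2, the kinase of the interleukin-3 receptor, was the listed gene that passed within EA20. Its probe sets 1421066_at and 1421065_at were at 0.73 and 0.69 there (limma adjusted p 0.026 and 0.031). In EA15 they were at -0.05 and -0.10, and in the fit over 6 arrays at 0.47 and 0.43 (limma adjusted p 0.31 and 0.37). The calls within EA20 ended without any 1 of its 4 arrays (limma adjusted p 0.35 to 0.51) and without the mean-variance trend (0.44), and the difference between the codes did not pass (limma adjusted p 0.36 and 0.40). For 1421066_at the signals were 1141, 2032 and 2137 in Dox(-) and 1105, 3453 and 3500 in Dox(+). The 2 EA20 Dox(+) arrays were thus the highest, and the EA15 arrays were nearly equal.

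In the list of MCL1 and BIM turnover and BAD binding all 20 genes were measured (75 probe sets, 39 positive, median 0.01). Ywhaq and Ywhag, whose products belong to the family of adaptors that hold phosphorylated BAD in the cytosol, had the smallest p. Ywhaq 1420830_x_at was at 0.25 (SE 0.06; limma adjusted p 0.26), with 5402, 5539 and 5358 in Dox(-) and 6029, 6765 and 6659 in Dox(+). Ywhag 1420817_at was at 0.25 (SE 0.06; limma adjusted p 0.26), with 3032, 2865 and 2988 against 3843, 3501 and 3284. The groups did not overlap in either probe set. Ywhaq 1420829_a_at and 1437608_x_at were at 0.25 and 0.32 (SE 0.07 and 0.10; limma adjusted p 0.30 and 0.36).

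The genes most like 2 members in their pattern were sought as a description, by Pearson's r over the 6 arrays after the mean of each code had been subtracted. For 1440770_at of Bcl2 these were Zfp800, Dmac2 and Zfp770 (r of 0.997, 0.997 and 0.996), and for 1416583_at of Bad they were Usp12, Ppcdc and Gabarap (r of 0.9996, 0.9994 and 0.9990). Among 22556 probe sets compared, 227 and 311 had r above 0.95, and the 6 arrays leave few independent values once the code means are taken out.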

How the data were processed

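Total RNA of the 6 samples was hybridised as biotin-labelled cRNA to Affymetrix arrays with 45101 probe sets (64 of them controls). The deposited intensities, 1 linear signal for each probe set, came from Affymetrix Expression Console, according to the submitters' processing notes, which as given here name no algorithm. Each array's mean was 500.0 once 2% of values at either end were trimmed, so the authors' intensities had been scaled. Probe sets were named by the platform annotation; 34945 had 1 symbol, 932 several and 9160 were not listed. All 10 members matched RefSeq by Entrez identifier and symbol.

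Signals were taken as log2(signal + 16), which makes ratios of dim probe sets too small. Every probe set was tested by itself, without a filter, with limma 3.58.1 in R 4.3.3 (lmFit, eBayes with a mean-variance trend), two-sided, with Benjamini-Hochberg adjustment over all 45037. Terms were doxycycline and the array code (EA15 or EA20); further fits used EA20 alone, and an interaction, which assumes that the lone EA15 arrays vary like those of EA20. Precision is set by the few arrays; detection calls were not used. Replicate numbers follow the order of the samples and pair nothing.

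The members, lists, tests and alternatives were chosen with earlier results of these data known. All member probe sets were reported; of each pathway list, the 4 probe sets with the smallest p and all that passed were named, and Jak2 also for its EA20 values. The fits were also run on simulated data. The outcome is not given here, so the size of change that these fits could detect is not stated. Alternatives were the fit without the code, other normalizations, priors, pseudocounts (1, 64) and probe set choices, array weights, a threshold of 0.10, and dropping arrays singly.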

Additional observations from a re-analysis of the deposited data

How the results depend on the processing

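None of the 33 member probe sets passed for doxycycline under any of the alternatives run, nor in EA20 alone or for the interaction (lowest adjusted p 0.078, for 1440770_at of Bcl2 without probe sets under the 40th percentile). The sign of the doxycycline difference held in every setting that tested them for 22 of the 33. It changed in at least 1 for the other 11, none of them called. The 5 Bcl2 probe sets kept it. The count over all probe sets was 26 higher and 13 lower, and moved to 0 and 0 without the array code, 0 and 0 without the trend, 64 and 46 without probe sets under the 40th percentile, 40 and 22 with a pseudocount of 1, 4 and 3 with 64, 8 and 5 with the mean of probe sets per gene, and 53 and 35 at an adjusted p under 0.10; EA20 alone gave 45 higher. Leaving out single arrays gave 0 to 31 higher and 0 to 6 lower, with 0 in both directions without any one of the 4 EA20 arrays. In EA20 alone 56 passed, and 0 without the trend, 95 with a robust prior, 367 without dim probe sets, 181 and 7 with pseudocounts of 1 and 64, 12 with the mean per gene, 208 at 0.10 and 0 to 0 without single arrays. Interactions numbered 0, but 11 without dim probe sets and 4 with a pseudocount of 1. Between the codes 11176 passed (7392 without the trend, 6107 for the brightest probe set per gene, 4964 for the mean, 7503 to 10402 without single arrays), among them 19 of the members (11, 7 and 5 in the same settings, 10 without _s_at, _x_at and _a_at probe sets, 14 to 18 without single arrays). Of the 19 calls 11 held in every setting that tested them. The 8 that did not were 1422938_at of Bcl2, 1420888_at of Bcl2l1, 1448503_at, 1416880_at and 1416881_at of Mcl1, 1426334_a_at of Bcl2l11, 1416583_at of Bad and 1418991_at of Bak1. The settings per gene test fewer values; the other causes were not tested. The survival median of 0.04 turned to -0.06 in EA15 alone, to -0.03 without _s_at, _x_at and _a_at probe sets and to -0.04 with the brightest probe set per gene; the death median stayed between -0.11 and -0.02. All of these moved by less than the spread between arrays. The spread was the residual SD of each list's median per array, after terms for doxycycline and the code. It takes in any disagreement between the codes on doxycycline, so it cannot judge the change of the survival median in EA15. No paired analysis was possible because the labels give no replicate numbers. Pmaip1 and the other probe sets with signals near 0 limit what can be said of those transcripts.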
